A study of Mus musculus with 10 samples.

Results

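DNA repair genes encode the proteins that find and mend damaged or mispaired DNA, and 47 of them, fixed by name, were followed through a comparison of a mouse tumour line with a subclone of it. They are 47 of 54343 genes in the expression table, and they cover mismatch repair (4 genes), homologous recombination (9), the Fanconi anaemia pathway (5), end joining (5), base excision and single-strand break repair (8), nucleotide excision (8), and break sensing and checkpoint kinases (8). Mismatch repair corrects replication errors. Homologous recombination copies an intact sister strand into a break, whereas end joining ligates broken ends directly. The Fanconi anaemia pathway unhooks crosslinks between DNA strands, base excision removes single damaged bases, and nucleotide excision cuts out bulky lesions such as those made by ultraviolet light. Many of these genes are transcribed most in cells that are replicating their DNA.

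MC38.T4 (5 libraries, genotype label low mesothelin expression) was compared with parental MC38 (5 libraries, genotype label wild type), both grown in the same serum-containing medium. MC38.T4 is a single clone: MC38 cells carrying a human mesothelin plasmid were cloned and grown as tumours in C57/BL6 mice, and the explanted cells were passaged and cloned once more from a cell with low mesothelin. The line therefore differs from its parent by the plasmid, growth in a mouse and cloning together, and these cannot be told apart. PolyA RNA was sequenced from strand-specific libraries, and the authors deposited FPKM, fragments counted for a gene and scaled by its length and by the size of the library. Whether replicate libraries are independent cultures is not stated, so the tests rest on the spread from library to library, part or all of which could be technical.

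FPKM sums lay between 478019 and 484460 in MC38.T4 and between 442183 and 477015 in MC38, where replicate 1 was lowest. MC38.T4 replicate 4 had the highest Malat1, a nuclear RNA, at 125 FPKM. The number of reads behind each value is unknown. The labels call the tissue melanoma and the libraries and treatment text colon cancer. All 7 colon epithelial markers lay below the filter on low values (FPKM of 1 or more in 5 or more of the 10 libraries), with Cdx2 at 0, and of 6 melanocyte markers only Mitf passed it, with Tyr at 0. Even so, the colon epithelial sum was higher in MC38.T4 (1.1 to 1.42 FPKM, against 0.0397 to 0.0843 FPKM in MC38). The melanocyte sum was 1.85 to 2.07 FPKM in MC38.T4 and 1.19 to 1.51 FPKM in MC38. Of its 6 markers only Mitf had a higher mean in MC38.T4 (1.74 ± 0.096 FPKM, against 0.78 ± 0.14 FPKM in MC38). The others had lower means there or were at 0. Summed markers of lymphocytes lay at 2.57 to 3.44 FPKM in MC38.T4 and 2.90 to 3.15 FPKM in MC38, and those of myeloid cells at 1.94 to 3.30 FPKM in MC38.T4 and 3.53 to 4.41 FPKM in MC38, with Cd3e, Cd8a, Ncr1 and Adgre1 at 0. Of 12 proliferation genes 11 were higher in MC38.T4, against 43.1% of all tested genes, with a median log2 difference of 1.05. Among them were Plk1 (55.9 ± 3.7 FPKM in MC38.T4 and 11.6 ± 0.68 FPKM in MC38) and Mcm5 (63.9 ± 3.9 FPKM in MC38.T4 and 21.01 ± 0.81 FPKM in MC38). Mcm2 was the exception (55.6 ± 2.3 FPKM in MC38.T4 and 64.5 ± 2.6 FPKM in MC38). Of 5 fibroblast markers 4 were tested and all 4 were higher in MC38.T4, against 43.1% of all tested genes. Pdgfrb (mean 0.191 FPKM in MC38) and Acta2 (mean 0.044 FPKM in MC38) met the filter only through their MC38.T4 libraries. For both, being tested was tied to being higher. The 5 markers had sums of 101 to 110 FPKM in MC38.T4 and 28.1 to 31.5 FPKM in MC38. None of 4 endothelial markers was tested (sums of 0.889 to 1.02 FPKM in MC38.T4 and 0.388 to 0.505 FPKM in MC38). Mitochondrial genes held 5.71% ± 0.72 of the FPKM sum in MC38.T4 and 5.14% ± 0.86 in MC38 (SD, n = 5 each). The part of proliferation or of the marker genes in the differences of repair genes was not tested.

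All 47 repair genes passed the filter, and 32 were higher and 11 lower in MC38.T4, while 4 (Brca1, Lig4, Parp2 and Ung) did not pass the test. The test was limma on log2(FPKM + 1) across 11110 genes, with the log2 difference taken as MC38.T4 minus MC38 and a Benjamini-Hochberg adjusted p under 0.05 as the threshold. Passing was common in this comparison: 86.0% of all tested genes passed, 43.1% higher and 42.9% lower in MC38.T4, so the total of 43 of 47 is close to the background. The same shares are the background for every count by pathway or list below. The members' median log2 difference was 0.30, against 0.00 over all tested genes, and their median size irrespective of sign was 0.48, against 0.47. A log2 difference of at least 1 was reached upwards by 5 members (Rad54l, Xpa, Mutyh, Fanca and Fancc), against 10.0% of all tested genes. Downwards it was reached by none of the 47, against 7.14%. Mutyh (mean 0.845 FPKM in MC38) and Fancc (mean 0.926 FPKM in MC38) met the filter only through their MC38.T4 libraries. For both, being tested was tied to being higher, which also limits their p-values below. The added 1 in log2(FPKM + 1) understates changes of low genes, and with a pseudocount of 0.1 the upward count was 8. Groups did not overlap for 41 members, against 77.4% of all tested genes.

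**Figure D1:**
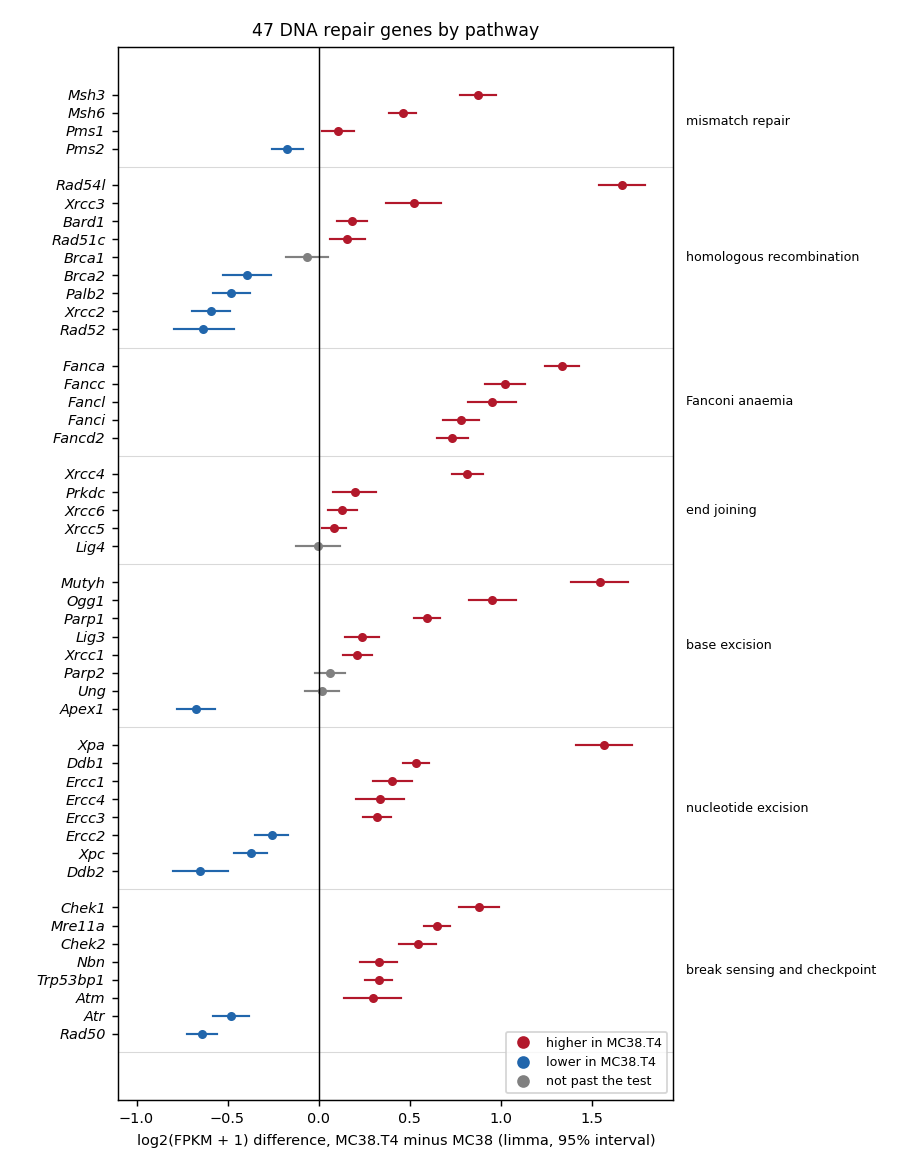
Points give the log2(FPKM + 1) difference of each of the 47 repair genes, MC38.T4 minus MC38, and lines its 95% interval from limma, with pathways from top to bottom. All 5 Fanconi anaemia genes lie to the right of 0, while homologous recombination genes spread from -0.63 (Rad52) to 1.67 (Rad54l).

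Promoter sequences are shown for the largest rise and the largest fall on the log2(FPKM + 1) scale, Rad54l and Apex1, and a pair of mismatch recognition genes that were both higher, Msh3 and Msh6. They run 5′ to 3′ on the gene's own strand and come from RefSeq on build GRCm38.p6, which is not the authors' GRCm39. In the first pair capitals mark CCAAT, and in the second pair TTT, any 2 bases, then CGC, a form of the motif bound by E2F factors, each searched on both strands.
Rad54l: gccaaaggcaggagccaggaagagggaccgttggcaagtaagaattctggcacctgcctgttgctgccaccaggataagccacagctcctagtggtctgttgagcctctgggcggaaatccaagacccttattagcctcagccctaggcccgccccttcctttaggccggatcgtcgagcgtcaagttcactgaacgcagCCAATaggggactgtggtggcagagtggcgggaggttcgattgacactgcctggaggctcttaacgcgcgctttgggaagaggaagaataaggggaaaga
Apex1: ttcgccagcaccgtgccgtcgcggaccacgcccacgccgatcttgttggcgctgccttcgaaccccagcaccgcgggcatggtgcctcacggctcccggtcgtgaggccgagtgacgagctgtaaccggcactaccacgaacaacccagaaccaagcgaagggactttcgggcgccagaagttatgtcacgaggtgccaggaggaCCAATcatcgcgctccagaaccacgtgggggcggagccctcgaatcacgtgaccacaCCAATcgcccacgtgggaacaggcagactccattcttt
Msh3: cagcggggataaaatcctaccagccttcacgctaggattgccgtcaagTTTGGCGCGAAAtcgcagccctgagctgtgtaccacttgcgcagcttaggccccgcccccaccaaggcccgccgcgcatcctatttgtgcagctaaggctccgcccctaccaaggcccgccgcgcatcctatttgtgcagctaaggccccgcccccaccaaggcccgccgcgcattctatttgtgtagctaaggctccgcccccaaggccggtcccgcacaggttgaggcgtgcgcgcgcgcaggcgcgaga
Msh6: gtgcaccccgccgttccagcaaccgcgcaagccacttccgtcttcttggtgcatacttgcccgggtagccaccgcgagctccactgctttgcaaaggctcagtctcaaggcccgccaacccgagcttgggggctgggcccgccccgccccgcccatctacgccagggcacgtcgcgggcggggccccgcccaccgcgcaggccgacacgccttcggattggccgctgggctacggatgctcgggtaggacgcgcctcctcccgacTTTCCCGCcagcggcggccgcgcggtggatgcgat
The Rad54l window lies at chr4:116123641-116123940 on the minus strand and holds 1 CCAAT, and that of Apex1 at chr14:50924699-50924998 on the plus strand holds 2, although the genes moved in opposite directions. In the Msh3 window (chr13:92354954-92355253, minus strand) the E2F-like motif occurs 2 times as overlapping matches on opposite strands, 202 and 198 bases before the gene start. Msh6 (chr17:87974800-87975099, plus strand) holds 1 match, which lies after the gene start. Of the 39 members with a RefSeq promoter, 7 held the E2F-like motif (17.9%), against 9.42% of 8675 promoters of tested genes and 5.27% of 27025 promoters of the table. CCAAT occurred in 21 of 39 members (53.8%) and in 40.3% of promoters of tested genes, and TTTGAA, the CHR-like element, in 1 of 39 (2.56%) and in 12.1%. Some matches of these motifs can overlap, and a match is a description of letters only. None of the 4 Fanconi anaemia genes in the table (Fanca, Fancc, Fanci and Fancl) held the E2F-like motif.

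Both tested mismatch recognition genes were higher in MC38.T4. MSH3 and MSH6 are alternative partners in the protein dimers that recognise replication errors, MSH6 for base mispairs and short loops and MSH3 for longer loops. Msh3 stood at 4.28, 4.32, 4.48, 3.95 and 4.14 FPKM in MC38.T4, against 1.79, 1.96, 2.01, 1.78 and 1.74 FPKM in MC38. No library of MC38.T4 reached down to the MC38 range, and the mean was 2.28-fold higher (log2 difference 0.87, SE 0.05, adjusted p = 8.8e-11). Msh6, the more abundant of these genes, stood at 39.3, 38.2, 38.7, 37.2 and 39.5 FPKM in MC38.T4, against 28.4, 28.0, 29.2, 26.8 and 26.4 FPKM in MC38. It was higher in all 5 MC38.T4 libraries (log2 difference 0.46, SE 0.04, adjusted p = 5.97e-09). PMS1 and PMS2 belong to the MutL family that acts after recognition. Pms2 was slightly lower in MC38.T4, 6.84 ± 0.37 FPKM in MC38.T4 and 7.83 ± 0.16 FPKM in MC38 (log2 difference -0.17, SE 0.04, adjusted p = 0.00118). Pms1 averaged 4.92 ± 0.14 FPKM in MC38.T4 and 4.49 ± 0.21 FPKM in MC38 (log2 difference 0.11, SE 0.04, adjusted p = 0.0231), a call lost with quantile normalization (adjusted p = 0.979), without MC38.T4 replicate 1 (adjusted p = 0.0563) and in 4 other alternatives. Of the 9 tested genes on a wider mismatch repair list, which cover excision, resynthesis and sealing, 5 were higher and 3 lower. Lig1, the replicative DNA ligase gene, rose to 33.7 ± 1.5 FPKM in MC38.T4, against 10.2 ± 0.58 FPKM in MC38, and Rfc5, a subunit of the clamp loader, to 31.6 ± 0.75 FPKM against 15.6 ± 0.70 FPKM. The clamp loader gene Rfc3 was lower (26.6 ± 0.49 FPKM in MC38.T4 and 33.8 ± 2.3 FPKM in MC38), as was Mlh3 (5.57 ± 0.10 FPKM in MC38.T4 and 6.54 ± 0.17 FPKM in MC38).

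Homologous recombination genes went both ways, with 4 higher, 4 lower and Brca1 not past the test (median log2 difference -0.06). RAD54L is a chromatin-remodelling motor that helps a broken end invade its template. Rad54l stood at 12.7, 12.8, 13.5, 13.2 and 13.4 FPKM in MC38.T4, against 3.77, 2.84, 3.76, 3.75 and 3.20 FPKM in MC38. The lowest MC38.T4 library was 8.88 FPKM above the highest MC38 library (log2 difference 1.67, SE 0.06, adjusted p = 8.65e-13). This was the largest log2(FPKM + 1) difference of the 47 genes, although with a pseudocount of 0.1 Mutyh rose more (2.26 for Mutyh and 1.90 for Rad54l). Of the genes that act in loading the recombinase, Brca2 averaged 3.45 ± 0.20 FPKM in MC38.T4 and 4.87 ± 0.54 FPKM in MC38 (log2 difference -0.39, SE 0.06, adjusted p = 2.38e-05), and Palb2, which joins BRCA2 to BRCA1, averaged 2.47 ± 0.096 FPKM in MC38.T4 and 3.84 ± 0.26 FPKM in MC38 (log2 difference -0.48, SE 0.05, adjusted p = 1.41e-07). Both were lower in every MC38.T4 library than in any MC38 library. Brca1, which starts this route, was at 14.8, 13.3, 13.5, 13.04 and 13.2 FPKM in MC38.T4, against 16.3, 13.04, 14.3, 14.1 and 13.5 FPKM in MC38. These ranges overlap, and the 95% interval of the log2 difference ran from -0.18 to 0.05 (adjusted p = 0.279). Its partner Bard1 was higher, 6.84 ± 0.28 FPKM in MC38.T4 and 5.89 ± 0.17 FPKM in MC38 (log2 difference 0.19, SE 0.04, adjusted p = 0.000441).

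Rad52 and Xrcc2 had the largest falls of the homologous recombination genes. RAD52 anneals single strands, and XRCC2 is a paralog of the recombinase that assists its filament. Rad52 stood at 3.37, 3.74, 3.98, 4.34 and 4.74 FPKM in MC38.T4, against 5.82, 7.70, 7.20, 6.48 and 6.75 FPKM in MC38. The groups did not overlap (log2 difference -0.63, SE 0.08, adjusted p = 1.83e-06). Xrcc2 stood at 4.04, 4.49, 4.55, 3.67 and 4.02 FPKM in MC38.T4, against 6.97, 6.72, 6.65, 6.68 and 6.69 FPKM in MC38. It was lower in all 5 MC38.T4 libraries (log2 difference -0.59, SE 0.05, adjusted p = 1.92e-08). The paralog Xrcc3 went the other way, 3.19 ± 0.27 FPKM in MC38.T4 and 1.92 ± 0.30 FPKM in MC38 (log2 difference 0.52, SE 0.07, adjusted p = 4.73e-06), and Rad51c was slightly higher, 3.48 ± 0.13 FPKM in MC38.T4 and 3.01 ± 0.16 FPKM in MC38 (log2 difference 0.16, SE 0.04, adjusted p = 0.00377), a call lost with quantile normalization (adjusted p = 0.542). Of 19 further genes of the pathway 12 were higher and 5 lower. The paralog Rad51b (5.11 ± 0.41 FPKM in MC38.T4 and 2.16 ± 0.18 FPKM in MC38) and the junction nuclease gene Mus81 (6.90 ± 0.39 FPKM in MC38.T4 and 3.23 ± 0.41 FPKM in MC38) rose most. The helicase gene Helq (6.62 ± 0.32 FPKM in MC38.T4 and 14.6 ± 0.16 FPKM in MC38) and Rpa2, which encodes a subunit of the single-strand binding complex (30.5 ± 0.94 FPKM in MC38.T4 and 47.7 ± 1.2 FPKM in MC38), fell most on the log2(FPKM + 1) scale.

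All 5 Fanconi anaemia genes were higher in MC38.T4, with log2 differences from 0.74 to 1.34 and a median of 0.96. The pathway's core complex attaches ubiquitin to the pair FANCD2 and FANCI, which then marks the crosslink for incision. Fanca, a core complex gene, stood at 11.5, 11.4, 10.5, 11.2 and 10.9 FPKM in MC38.T4, against 3.92, 3.90, 4.06, 3.46 and 3.65 FPKM in MC38. The lowest MC38.T4 library was 6.49 FPKM above the highest MC38 library (log2 difference 1.34, SE 0.04, adjusted p = 3.52e-13). Fancc, of the same complex, was the lowest of these genes, with 2.86, 2.93, 3.22, 2.68 and 2.90 FPKM in MC38.T4, against 0.821, 0.853, 0.952, 1.07 and 0.930 FPKM in MC38. Its mean was 3.15-fold higher, which the log2(FPKM + 1) scale shows as log2 difference 1.03, SE 0.05, adjusted p = 4.36e-11. Fancl, the ubiquitin ligase of the complex, averaged 6.50 ± 0.45 FPKM in MC38.T4 and 2.87 ± 0.33 FPKM in MC38 (log2 difference 0.96, SE 0.06, adjusted p = 9.08e-10). The substrates rose together: Fancd2 averaged 10.4 ± 0.40 FPKM in MC38.T4 and 5.87 ± 0.23 FPKM in MC38 and Fanci 6.43 ± 0.13 FPKM in MC38.T4 and 3.32 ± 0.26 FPKM in MC38, with log2 differences of 0.74 and 0.78 (SE 0.04 and 0.05). The ratio of Fancd2 to Fanci FPKM was 1.62 ± 0.09 in MC38.T4 and 1.77 ± 0.11 in MC38, and these ranges overlapped. The other 12 genes of the pathway did not all follow, with 6 higher, 5 lower and 1 not past the test. Fancb rose to 5.40 ± 0.28 FPKM in MC38.T4, against 2.08 ± 0.15 FPKM in MC38, and Fancf to 3.07 ± 0.36 FPKM against 1.94 ± 0.16 FPKM. Faap24 fell to 5.35 ± 0.21 FPKM in MC38.T4, against 11.9 ± 0.34 FPKM in MC38, and Faap20 to 13.1 ± 0.85 FPKM against 19.4 ± 0.73 FPKM. These last genes encode partners of the core complex.

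**Figure D2:**
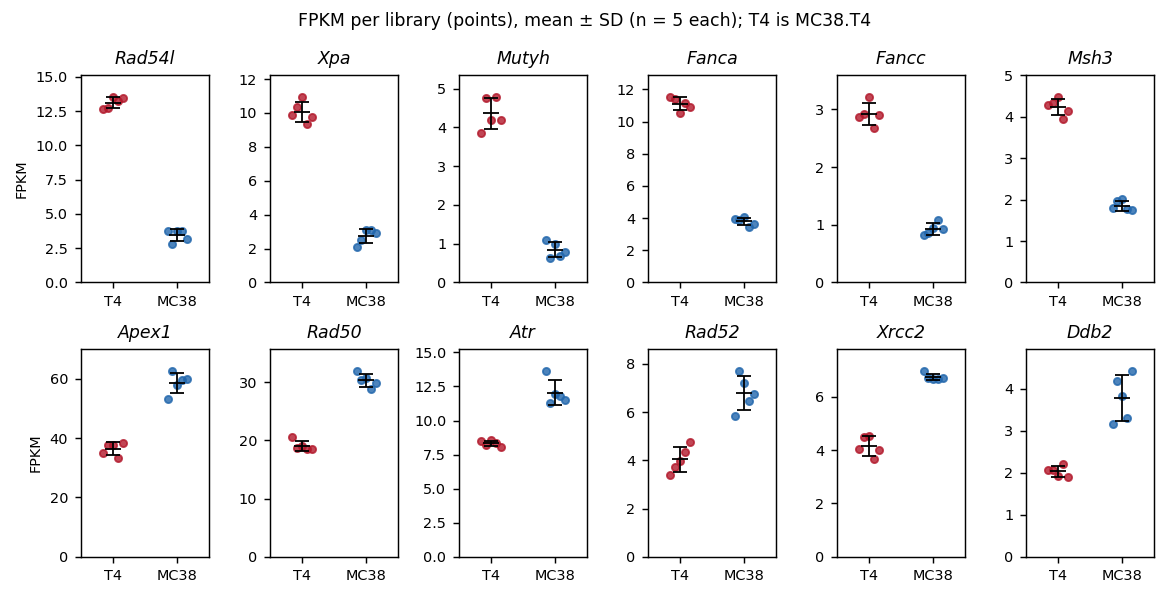
FPKM of 12 repair genes in each library (points, side by side within a line in no meaningful order), with mean ± SD as bars, MC38.T4 left and MC38 right, each axis starting at 0. The upper row holds genes that were higher in MC38.T4 and the lower row genes that were lower, and in none of the 12 do the lines overlap.

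Among end joining genes Xrcc4 was the clear mover, and the Ku genes changed little. XRCC4 holds DNA ligase IV, the enzyme that seals broken ends. Xrcc4 stood at 12.3, 12.9, 13.4, 12.7 and 12.7 FPKM in MC38.T4, against 6.94, 7.35, 6.82, 6.64 and 6.41 FPKM in MC38. All MC38.T4 libraries lay above all MC38 libraries (log2 difference 0.82, SE 0.04, adjusted p = 3.85e-11). Lig4, the ligase gene itself, averaged 2.69 ± 0.28 FPKM in MC38.T4 and 2.69 ± 0.18 FPKM in MC38, and the interval of its log2 difference ran from -0.13 to 0.12 (adjusted p = 0.952). The ratio of Xrcc4 to Lig4 was thus 4.79 ± 0.38 in MC38.T4 and 2.55 ± 0.27 in MC38. Xrcc5 and Xrcc6 encode the subunits of the Ku ring, which grips DNA ends. Xrcc5 averaged 38.1 ± 0.15 FPKM in MC38.T4 and 35.9 ± 1.1 FPKM in MC38 (adjusted p = 0.0179), and its call did not hold on the TPM scale (adjusted p = 0.259) or with a shift to equal medians (adjusted p = 0.112). Xrcc6 averaged 50.5 ± 1.2 FPKM in MC38.T4 and 46.1 ± 2.2 FPKM in MC38 (log2 difference 0.13, SE 0.04, adjusted p = 0.0045). Prkdc, the kinase that Ku recruits, was near the filter at 1.67, 1.40, 1.45, 1.65 and 1.49 FPKM in MC38.T4, against 1.44, 1.06, 1.21, 1.08 and 1.25 FPKM in MC38. Its ranges overlapped, and its call (adjusted p = 0.00407) was lost with quantile normalization (adjusted p = 0.112). Of 8 further end joining genes 6 were higher and 1 lower. The polymerase gene Polm (8.91 ± 0.19 FPKM in MC38.T4 and 4.38 ± 0.27 FPKM in MC38) rose, and the polymerase gene Poll fell (5.60 ± 0.41 FPKM in MC38.T4 and 7.49 ± 0.42 FPKM in MC38).

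In base excision repair the glycosylase genes for oxidised guanine rose and the endonuclease gene Apex1 fell. OGG1 removes oxidised guanine paired with cytosine, and MUTYH removes the adenine wrongly placed opposite it. Mutyh stood at 3.87, 4.77, 4.20, 4.79 and 4.20 FPKM in MC38.T4, against 1.10, 0.636, 1.00, 0.691 and 0.796 FPKM in MC38. Its ranges were 2.77 FPKM apart, and the mean was 5.17-fold higher (log2 difference 1.54, SE 0.07, adjusted p = 2.54e-11). Ogg1 stood at 7.71, 7.32, 7.91, 6.55 and 7.86 FPKM in MC38.T4, against 3.12, 3.73, 3.13, 3.15 and 3.71 FPKM in MC38. The groups did not overlap, and the mean was 2.22-fold higher (log2 difference 0.96, SE 0.06, adjusted p = 5.94e-10). Ung, the uracil glycosylase gene, did not pass the test: it averaged 6.30 ± 0.36 FPKM in MC38.T4 and 6.19 ± 0.20 FPKM in MC38, with an interval of the log2 difference from -0.07 to 0.11 (adjusted p = 0.659). APEX1 cuts the strand where a glycosylase has removed a base. Apex1 stood at 35.1, 37.6, 37.7, 33.2 and 38.2 FPKM in MC38.T4, against 53.3, 62.6, 57.7, 59.6 and 59.8 FPKM in MC38. The highest MC38.T4 library was 15.1 FPKM below the lowest MC38 library (log2 difference -0.67, SE 0.05, adjusted p = 2.86e-09). This was the largest fall among the 47 genes on the log2(FPKM + 1) scale, but with a pseudocount of 0.1 Ddb2 fell more (-0.86 for Ddb2 and -0.69 for Apex1).

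Of the sensor and scaffold genes for single-strand breaks Parp1, Xrcc1 and Lig3 were higher and Parp2 did not pass the test. PARP1 and PARP2 bind breaks and build poly(ADP-ribose) chains, and XRCC1 with its ligase LIG3 is recruited to them. Parp1 stood at 70.1, 65.8, 64.4, 62.5 and 66.8 FPKM in MC38.T4, against 43.1, 43.3, 42.5, 44.4 and 43.0 FPKM in MC38. It was higher in all 5 MC38.T4 libraries (log2 difference 0.60, SE 0.03, adjusted p = 2.03e-10), while Parp2 averaged 16.2 ± 0.51 FPKM in MC38.T4 and 15.5 ± 0.71 FPKM in MC38 with an interval of the log2 difference from -0.02 to 0.14 (adjusted p = 0.147). Xrcc1 averaged 31.1 ± 1.2 FPKM in MC38.T4 and 26.7 ± 0.98 FPKM in MC38 (log2 difference 0.21, SE 0.04, adjusted p = 6.36e-05) and Lig3 10.7 ± 0.24 FPKM in MC38.T4 and 8.89 ± 0.62 FPKM in MC38 (log2 difference 0.24, SE 0.04, adjusted p = 0.000116). Their ratio was 2.92 ± 0.16 in MC38.T4 and 3.02 ± 0.29 in MC38, with overlapping ranges. On the wider base excision list 8 of 13 tested genes were higher and 4 lower. Parp3 rose to 33.8 ± 0.83 FPKM in MC38.T4, against 13.1 ± 0.48 FPKM in MC38, and the glycosylase gene Neil3 to 12.8 ± 0.60 FPKM against 4.83 ± 0.11 FPKM. The thymine glycosylase gene Tdg fell to 34.6 ± 2.7 FPKM in MC38.T4, against 57.4 ± 1.4 FPKM in MC38, and Parg, which takes poly(ADP-ribose) chains apart, to 11.4 ± 0.15 FPKM against 18.2 ± 0.97 FPKM.

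In nucleotide excision repair the lesion-verifying gene Xpa rose most, and the damage sensor genes Xpc and Ddb2 fell. XPA checks the opened lesion and brings in the nucleases. Xpa stood at 9.91, 10.3, 11.0, 9.35 and 9.78 FPKM in MC38.T4, against 2.12, 2.49, 3.11, 3.08 and 2.90 FPKM in MC38. Its mean was 3.67-fold higher, and its ranges were 6.24 FPKM apart (log2 difference 1.57, SE 0.07, adjusted p = 2.16e-11). XPC and the dimer of DDB1 and DDB2 detect damage across the genome. Ddb2 stood at 2.06, 2.06, 1.93, 2.21 and 1.89 FPKM in MC38.T4, against 3.15, 4.19, 3.84, 3.30 and 4.42 FPKM in MC38. It was lower in all 5 MC38.T4 libraries (log2 difference -0.65, SE 0.07, adjusted p = 4.18e-07), as was Xpc, at 5.29 ± 0.27 FPKM in MC38.T4 and 7.13 ± 0.23 FPKM in MC38 (log2 difference -0.37, SE 0.04, adjusted p = 6.64e-07). Ddb1, which also serves as the adaptor of a ubiquitin ligase and was by far the most abundant of the 47 transcripts per length, stood at 343, 338, 328, 341 and 333 FPKM in MC38.T4, against 225, 237, 234, 222 and 240 FPKM in MC38. It moved the other way from its partner (log2 difference 0.54, SE 0.03, adjusted p = 5.51e-10). The ratio of Ddb2 to Ddb1 was 0.00603 ± 0.00031 in MC38.T4 and 0.0163 ± 0.0018 in MC38.

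Of the helicase and nuclease genes of this pathway Ercc1, Ercc3 and Ercc4 were higher and Ercc2 was lower. Ercc2 and Ercc3 encode the helicase subunits of TFIIH, the factor that opens the lesion. Ercc2 was lower, at 8.03 ± 0.38 FPKM in MC38.T4 and 9.80 ± 0.41 FPKM in MC38 (log2 difference -0.26, SE 0.04, adjusted p = 3.69e-05), while Ercc3 averaged 21.6 ± 0.44 FPKM in MC38.T4 and 17.1 ± 0.79 FPKM in MC38 (log2 difference 0.32, SE 0.04, adjusted p = 7.87e-07). Ercc1 and Ercc4 together encode the nuclease that cuts on one side of the lesion. Both rose, Ercc1 at 12.1 ± 0.78 FPKM in MC38.T4 and 8.90 ± 0.57 FPKM in MC38 (log2 difference 0.40, SE 0.05, adjusted p = 2.07e-06) and Ercc4 at 4.18 ± 0.21 FPKM in MC38.T4 and 3.11 ± 0.38 FPKM in MC38 (log2 difference 0.34, SE 0.06, adjusted p = 0.000122). Of 18 further genes 9 were higher and 8 lower, so the wider pathway leaned neither way (median log2 difference 0.04). Cul4a, the cullin that binds DDB1, rose to 59.7 ± 0.82 FPKM in MC38.T4, against 38.9 ± 2.3 FPKM in MC38. The TFIIH genes Gtf2h1 (64.5 ± 1.6 FPKM in MC38.T4 and 134.5 ± 4.7 FPKM in MC38) and Gtf2h5 (39.8 ± 2.1 FPKM in MC38.T4 and 54.7 ± 3.9 FPKM in MC38) fell most on the log2(FPKM + 1) scale.

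Of the break sensing and checkpoint genes 6 were higher and 2, Atr and Rad50, were lower. ATR answers stalled replication and acts through CHEK1, whereas ATM answers breaks and acts through CHEK2. Chek1 stood at 14.8, 15.3, 15.1, 14.3 and 13.9 FPKM in MC38.T4, against 8.28, 7.24, 6.93, 8.10 and 6.98 FPKM in MC38. The ranges were 5.58 FPKM apart (log2 difference 0.88, SE 0.05, adjusted p = 2.23e-10). Atr stood at 8.49, 8.18, 8.54, 8.32 and 8.07 FPKM in MC38.T4, against 13.6, 11.3, 12.0, 11.8 and 11.5 FPKM in MC38. All MC38.T4 libraries were below all MC38 libraries (log2 difference -0.48, SE 0.05, adjusted p = 1.05e-07), so the kinase gene fell and the gene of its effector rose. The ratio of Atr to Chek1 was 0.568 ± 0.020 in MC38.T4 and 1.61 ± 0.11 in MC38. Atm averaged 6.41 ± 0.28 FPKM in MC38.T4 and 5.06 ± 0.81 FPKM in MC38 with overlapping ranges (log2 difference 0.30, SE 0.07, adjusted p = 0.00151), and Chek2 11.7 ± 0.80 FPKM in MC38.T4 and 7.70 ± 0.37 FPKM in MC38 (log2 difference 0.55, SE 0.05, adjusted p = 3.38e-08).

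MRE11, RAD50 and NBN form a single complex that binds and trims broken ends, yet their transcripts did not move alike. Mre11a stood at 22.8, 22.2, 22.0, 21.8 and 22.0 FPKM in MC38.T4, against 14.3, 13.02, 13.9, 13.96 and 13.5 FPKM in MC38. It was higher in all 5 MC38.T4 libraries (log2 difference 0.65, SE 0.03, adjusted p = 6.6e-11). Rad50 stood at 20.6, 18.7, 19.0, 18.5 and 18.5 FPKM in MC38.T4, against 31.9, 30.3, 30.7, 28.8 and 29.8 FPKM in MC38. It was lower in all 5 MC38.T4 libraries (log2 difference -0.64, SE 0.04, adjusted p = 4.17e-10). Nbn followed Mre11a in direction, at 16.97 ± 1.2 FPKM in MC38.T4 and 13.3 ± 0.38 FPKM in MC38 (log2 difference 0.33, SE 0.05, adjusted p = 8.21e-06). Rad50 was therefore the most abundant of these transcripts per length in MC38, and Mre11a in MC38.T4. Trp53bp1, whose product shields ends from trimming, averaged 10.7 ± 0.25 FPKM in MC38.T4 and 8.28 ± 0.20 FPKM in MC38 (log2 difference 0.33, SE 0.03, adjusted p = 2.73e-07). Of 17 further signalling genes 5 were higher, 7 lower and 5 not past the test. H2ax, the histone marked at breaks, rose to 41.1 ± 2.1 FPKM in MC38.T4, against 23.2 ± 1.8 FPKM in MC38, and Clspn, which links ATR to CHEK1, to 22.1 ± 1.6 FPKM against 14.3 ± 0.63 FPKM. Shld3, an end-protection gene, fell to 2.84 ± 0.25 FPKM in MC38.T4, against 8.86 ± 0.29 FPKM in MC38, and the checkpoint clamp gene Rad9a to 24.1 ± 1.0 FPKM against 61.5 ± 1.4 FPKM.

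**Figure D3:**
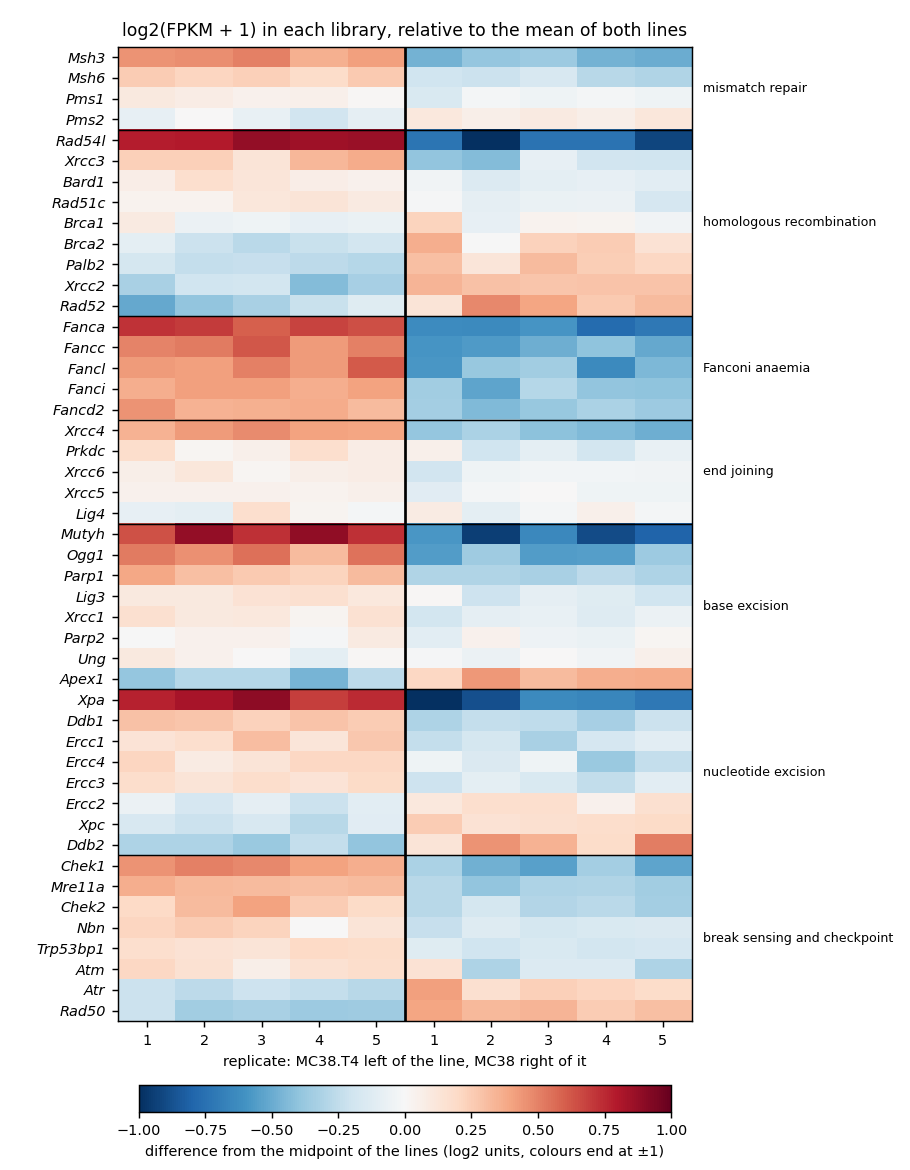
Rows are the 47 genes by pathway, columns the 10 libraries (MC38.T4 left of the line, MC38 right), and colour the log2(FPKM + 1) value relative to the midpoint of the means of both lines (red above, blue below). The Fanconi anaemia block is red in all MC38.T4 libraries, whereas the homologous recombination and nucleotide excision blocks hold rows of both colours.

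For 17 partner pairs the difference of log2(FPKM + 1) between both genes was compared between lines by a two-sided exact permutation test over every way to assign 5 of the 10 libraries to a line, with Benjamini-Hochberg adjustment over the 17. It differed for 11 pairs, each at the smallest p this test can give (exact p = 0.00794, adjusted p = 0.0123), and the FPKM ratios of these 11 did not overlap between lines. The difference of 2 genes did not overlap between lines for 77.5% of all pairs of tested genes, so 11 of 17 shows nothing particular to partners. Where both genes had moved in opposite directions without overlap, as Mre11a and Rad50 had, their difference had to separate the lines. For such pairs the p-value adds nothing to the single genes. Mre11a to Rad50 shifted by 1.29 on the log2 scale, with a ratio of 1.16 ± 0.03 in MC38.T4 and 0.453 ± 0.020 in MC38. Atr to Chek1 shifted the other way by -1.37, Ddb2 to Ddb1 by -1.19, and Nbn to Rad50 by 0.97. For the Ku pair Xrcc5 to Xrcc6 the ratio was 0.755 ± 0.018 in MC38.T4 and 0.780 ± 0.021 in MC38 (exact p = 0.0556). Ercc1 to Ercc4 was 2.91 ± 0.27 in MC38.T4 and 2.91 ± 0.52 in MC38 (exact p = 0.540). Fancd2 to Fanci, Brca2 to Palb2, Xrcc1 to Lig3 and Atm to Chek2 did not pass after adjustment either, which does not show that these ratios are equal. Brca2 to Palb2 passed without MC38 replicate 1 (exact test, adjusted p = 0.045) and Atm to Chek2 without MC38 replicate 2 (exact test, adjusted p = 0.0135). Pairing libraries by replicate number leaves 5 pairs, for which the smallest p is 0.0625, so no pair could pass there.

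**Figure D4:**
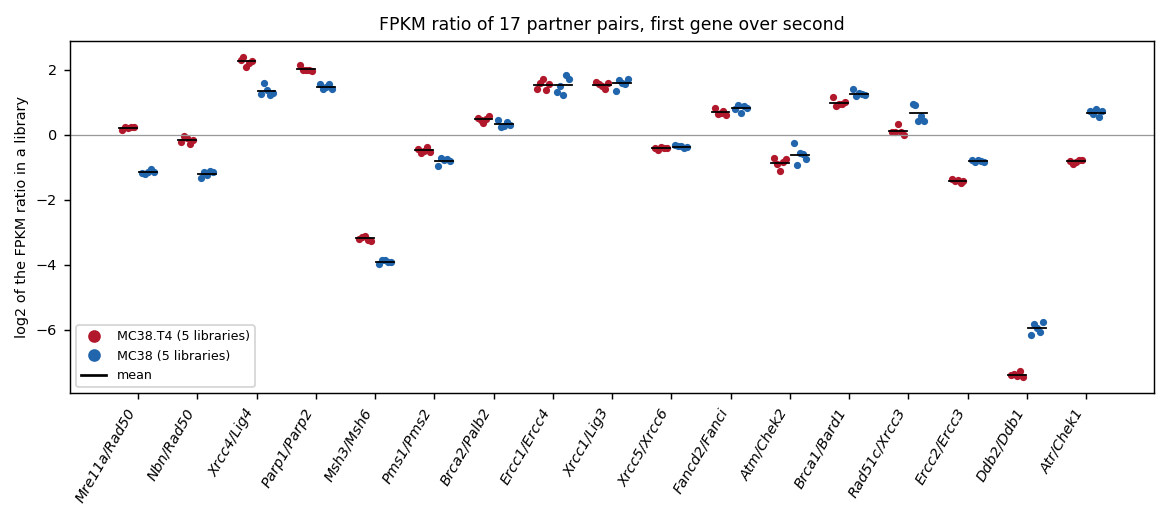
Each point is the log2 of the FPKM ratio of 2 partner genes in a library, with MC38.T4 left of MC38 within each pair and short lines at the means. Pairs run from Mre11a/Rad50, whose log2 difference shifted most upwards in MC38.T4 (1.29), to Atr/Chek1, shifted most downwards (-1.37), and for 11 of the 17 the lines do not overlap.

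Position in the genome was taken from the RefSeq order of tested genes on GRCm38.p6, with no coordinates compared. Rad54l and Mutyh both lie on chromosome 4 with 13 tested genes between them, of which 9 were higher and 2 lower (median log2 difference 0.59). Xpa and Nbn lie on chromosome 4 as well, so 3 of the 5 members with a log2 difference of at least 1 were on that chromosome. A log2 difference of at least 1 upwards was reached by 11.4% of its tested genes, close to the 10.0% of all tested genes. Of its 711 tested genes 378 were higher and 224 lower (median 0.17), against 43.1% higher and 42.9% lower over all tested genes. Xrcc4 and Msh3 on chromosome 13 both rose, while of the 5 tested genes between them 2 were higher and 1 lower (median -0.07). Ercc1 and Ercc2 lie near each other on chromosome 7 with 2 tested genes between them, both lower, and moved in opposite directions. The 10 tested neighbours on either side of Fanca had a median of 0.28, those of Xpa 0.11, those of Fancl -0.36 and those of Apex1 -0.28.

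Many repair genes share exon bases with a neighbour on the other strand, and the labels do not say whether counting used the strand. In GENCODE M21 on GRCm38 this held for 17 of the 47 members, Msh3 among them. Fanca shares 552 bases with Zfp276, which fell to 4.55 ± 0.18 FPKM in MC38.T4, against 7.17 ± 0.54 FPKM in MC38, opposite to Fanca. Fanci shares 665 with Polg (10.1 ± 0.33 FPKM in MC38.T4 and 9.35 ± 0.23 FPKM in MC38). Fancl shares 462 with Vrk2 (12.0 ± 0.74 FPKM in MC38.T4 and 9.8 ± 0.46 FPKM in MC38). Polg and Vrk2 each lay above the Fanconi anaemia gene and moved in its direction. Ddb1 shares 304 bases with Tkfc, which rose to 15.6 ± 0.30 FPKM in MC38.T4, against 2.58 ± 0.31 FPKM in MC38, in the direction of Ddb1 but far below its level. Xpa shares 77 bases with Ncbp1 (97.9 ± 3.1 FPKM in MC38.T4 and 80.9 ± 2.3 FPKM in MC38), which moved in the direction of Xpa and lay far above its level. Rad54l shares 128 with Lrrc41 (36.4 ± 1.5 FPKM in MC38.T4 and 39.5 ± 0.90 FPKM in MC38), which also lay above it but moved the other way. Apex1 shares 877 bases with Pip4p1 (18.8 ± 1.3 FPKM in MC38.T4 and 22.2 ± 1.2 FPKM in MC38), Ddb2 621 with Acp2 (6.20 ± 0.17 FPKM in MC38.T4 and 5.62 ± 0.16 FPKM in MC38), and Trp53bp1 2130 with Tubgcp4 (18.1 ± 0.75 FPKM in MC38.T4 and 24.1 ± 0.86 FPKM in MC38). Values of such members are uncertain to that extent, and the part of shared bases in their differences was not tested.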

How the data were processed

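RNA from cultured MC38.T4 and MC38 cells was measured in 10 libraries, and the authors deposited 1 table of FPKM per gene and library, mapped here through the library names in the labels. Per the submitters' processing notes the build was GRCm39 and DESeq2 was used, in a role they do not give. For the aligner, the counting program and the annotation, no name is given in the sources used here. FPKM depends on the library total, so a shift of abundant genes moves all others, and no counting interval can be given. Genes with FPKM of 1 or more in 5 or more libraries (11110) were fitted with limma 3.58.1 in R 4.3.3 on log2(FPKM + 1), with trend and robust moderation, a group term, and adjustment over all of them. This fit was tested on simulated data with known changes in a small part of the genes. In the real comparison 86.0% of tested genes passed, so that simulation does not measure the error rate here. Ratios and permutations used SciPy 1.17.1 and NumPy 2.4.6 under Python 3.11.15, tables used pandas 2.3.3, and plots used matplotlib 3.10.9. No column of the table was left out.

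The members, lists and pairs were chosen with earlier results of these data known, so lists have counts and medians only. For the same reason the p-values of the pairs only describe how far the libraries separate. Named genes are the 47 members and, of each other list, at most 2 largest rises and 2 largest falls past the test with mean FPKM of at least 1, or else the member with the highest mean. Some genes that this rule names are not reported here. Genes overlapping or neighbouring a member were named after their values were seen. All 153 symbols of the other lists were found, 1 through a synonym. Same-numbered libraries of the lines had correlations of deviations from -0.129 to 0.142, so the numbers were not treated as pairs. The 19 alternatives covered pseudocount, filter, scaling, moderation, a replicate block and left-out libraries.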

Additional observations from a re-analysis of the deposited data

Results flagged for a closer look

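In some genes 1 library stood apart from the other 4 of its line by more than Dixon's 95% critical value. This held for 9 of 172 groups of 5 libraries, 5 of them among the 94 groups of repair members, and chance flags about 1 in 20. MC38.T4 replicate 1 was high for Brca1 (14.8 FPKM, others 13.04 to 13.46), Rad50 (20.6 FPKM, others 18.5 to 19.0), Lig1 (36.4 FPKM, others 32.9 to 33.3) and Plk1 (62.5 FPKM, others 53.6 to 54.6). MC38 replicate 1 was low for Pms1 (4.13 FPKM, others 4.54 to 4.63) and Xrcc6 (42.1 FPKM, others 46.8 to 47.4), and high for Xrcc2 (6.97 FPKM, others 6.65 to 6.72). MC38.T4 replicate 4 was low for Mlh3 (5.39 FPKM, others 5.58 to 5.65), and MC38 replicate 5 was low for the translesion polymerase gene Rev1 (6.95 FPKM, others 7.11 to 7.16).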

How the results depend on the processing

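Over the 19 alternatives the members called higher numbered 24 to 32 and those called lower 8 to 12, and the median of all tested genes moved by less than 0.1 on the log2 scale. A minimum FPKM of 5, which tests fewer genes, left 3 members with a log2(FPKM + 1) difference of at least 1 upwards. It left 1 mismatch gene higher, and 2 homologous recombination genes higher and 2 lower. With a pseudocount of 0.1, 8 members had a log2 difference of at least 1 upwards. Quantile normalization made 1 end joining gene lower (Lig4, log2 difference -0.137, adjusted p = 0.0383), and the cause was not tested. Differences near 0 changed sign. Ung was at -0.071 with quantile normalization, -0.022 as TPM and -0.007 with equal medians, and ranged from -0.002 to 0.049 with libraries left out. Lig4 ranged from -0.047 to 0.02 with libraries left out. The Xrcc1 to Lig3 difference was 0.036 with quantile normalization and -0.08 to 0.003 with libraries left out. Pms1 lost its call in 6 alternatives (adjusted p = 0.0536 to 0.979), among them those without MC38.T4 replicate 1 (adjusted p = 0.0563) and without both MC38 replicate 1 and MC38.T4 replicate 4 (adjusted p = 0.0601). The Brca2 to Palb2 ratio passed without MC38 replicate 1 (exact test, adjusted p = 0.045), and Atm to Chek2 without MC38 replicate 2 (exact test, adjusted p = 0.0135) and with quantile normalization. The replicate block called 31 members higher and 11 lower, and left 0 partner pairs past the test by construction. No library correlated best with its own number. Read depth is unknown, so what it limits for low genes such as Prkdc, Fancc and Mutyh cannot be stated.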

Other observations

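Genes for damage tolerance and direct reversal, which are in none of the pathways above, moved in both directions. Of 7 tested genes 3 were higher and 3 lower in MC38.T4. The translesion polymerase gene Polh rose to 19.6 ± 1.1 FPKM in MC38.T4, against 11.9 ± 0.22 FPKM in MC38 (log2 difference 0.67, adjusted p = 2.67e-10), and Rev1 to 10.8 ± 0.30 FPKM against 7.10 ± 0.085 FPKM. Among listed genes of direct reversal enzymes that strip methyl groups from bases, Alkbh2 and Alkbh3 fell. Alkbh2 fell to 6.88 ± 0.72 FPKM in MC38.T4, against 14.3 ± 1.4 FPKM in MC38, and Alkbh3 to 16.6 ± 0.97 FPKM against 26.1 ± 0.66 FPKM. Mgmt, the other listed gene of this kind, was at 0 FPKM in all 10 libraries and was not tested. Over all 103 tested genes of the wider repair lists 54 were higher and 36 lower, where 43.1% of all tested genes were higher and 42.9% lower. Their median log2 difference was 0.13, against 0.30 for the 47 members and 0.00 for all tested genes.

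The libraries of a line differed by transcript length. Of the 13 members whose longest annotated transcript reaches 5 kb (Atm, Atr, Brca1, Brca2, Prkdc, Trp53bp1 and others, a limit set after the table had been seen), 11 had their highest MC38 value in replicate 1, the library with the lowest FPKM sum. The median deviation of these 13 from the mean of the MC38 libraries was 0.08 on the log2 scale in replicate 1 and -0.08 in replicate 2, while that of the other 34 members was -0.03 in replicate 1 and 0.03 in replicate 2. In MC38.T4 the same 13 genes deviated by 0.04 in replicate 1 and by -0.02 to 0.00 in the others.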
